A study of Mus musculus with 49 samples.

Results

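The splicing factor and hnRNP genes were the 55 protein-coding genes of the count table whose symbols begin with Hnrnp, U2af or Snrp, or are Srsf, Sf3a or Sf3b followed by a number, out of 21896 protein-coding genes and 52636 genes in all. They comprised 20 hnRNP genes, 11 SR protein genes, 9 genes of the SF3 complex, 8 genes of the Sm core, 4 genes for proteins of the U1 and U2 snRNPs and 3 U2AF genes. The rule used names and gene type alone, and 5 processed pseudogenes with matching symbols were left out.

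Spliceosomes remove introns from pre-mRNA in the nucleus. Small nuclear ribonucleoproteins (snRNPs) are built on a ring of Sm proteins, U2AF and SF3 act at the 3′ splice site and the branch point, and SR proteins and hnRNPs bind the pre-mRNA and favour or hinder the use of individual exons. The proteins act in the nucleus, but their messages are translated in the cytoplasm. Several SR protein and hnRNP genes limit their own output through transcripts that keep an intron or include an exon with an early stop codon, and transcripts that keep an intron can stay in the nucleus. In the annotation 41 of the 55 genes (74.5%) had a retained-intron transcript, against 41.6% of protein-coding genes, and 27 (49.1%) had a transcript marked for nonsense-mediated decay, against 20.8%.

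RNA came from D1 or D2 medium spiny neurons (MSNs) of the mouse nucleus accumbens, 1 mouse per sample, all on C57BL/6J, with ages not given in the sources used here. Nuclear-FACS sorted nuclei from frozen tissue of mice heterozygous for a nuclear GFP (Drd1-cre or Drd2-cre x Thy1-loxPSTOPloxP-EGFP-F; 6 D1 and 5 D2 libraries). Whole cell-FACS sorted papain-treated cells from fresh tissue of mice heterozygous for a cytoplasmic fluorophore driven by the Drd1 or the Drd2 promoter (8 D1 and 6 D2 libraries). RiboTag purified ribosomes carrying an HA-tagged subunit from fresh tissue (Drd1-cre or Drd2-cre x Rpl22-loxPexon4loxP-exon4-HA; 6 D1 and 6 D2 male and 5 D1 and 5 D2 female libraries). All FACS libraries were from males. Each group is thus defined by the activity of one promoter, and method, reporter line and tissue state changed together, so that their effects cannot be told apart. In such bulk libraries fewer cells of a type and less RNA per cell cannot be told apart either.

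Libraries held 3701255 to 68777008 counts. Levels are given as normalised CPM, counts scaled to the library size after TMM scaling over all 47 libraries. In RiboTag libraries the 10 highest genes took 84.9% to 88.3% of counts. The direction between RiboTag and whole cell libraries, and between RiboTag and nuclear libraries, rests on this scaling. The 55 genes held 0.0600% to 0.0791% of raw RiboTag counts, although their normalised CPM was higher there. This share lay below the 0.124% to 0.421% of whole cell libraries. It also lay below the 0.0794% to 0.192% of nuclear D1 and the 0.0879% to 0.132% of nuclear D2 libraries. Other scalings moved the median log2 fold change of protein-coding genes, most in nuclear against RiboTag D2 (from 0.94 to 1.44 with DESeq2 size factors), so that medians of the 55 genes are set beside that median. Background was estimated from the count density over 1431 olfactory and vomeronasal receptor genes. It came to 32.4% to 52.2% of counts in nuclear D2, 0.578% to 22.2% in nuclear D1, 8.33% to 52.4% in whole cell and 0.0257% to 0.0631% in RiboTag libraries.

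Markers followed the cell type labels in whole cell and RiboTag libraries, but only in part in nuclear libraries. Drd1, the D1 dopamine receptor, lay at 4.56 to 21.8 normalised CPM in the 6 libraries labelled nuclear D1 and at 0.746 to 2.25 in the 5 labelled nuclear D2. Drd2, the D2 dopamine receptor, lay at 32.7 to 111 in nuclear D1 and at 58.9 to 139 in nuclear D2, which overlapped. Penk, the enkephalin precursor of D2-MSNs, was higher in every library labelled nuclear D1 (31.5 to 259) than in any labelled nuclear D2 (2.85 to 22.3). The sum of 5 D2-MSN markers was 74.4 to 369 in nuclear D1 and 68.5 to 171 in nuclear D2, against 489 to 1992 in whole cell D2 libraries. The sum of 5 oligodendrocyte markers was 205 to 612 in nuclear D1, 82.0 to 209 in nuclear D2, 57.7 to 145 in RiboTag and 27.4 to 44.4 in whole cell libraries. Nuclear D1 and nuclear D2 stand below for the labels, no library was moved or left out, and the part of these differences in the results was not tested.

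The 55 messages had their highest normalised level on ribosomes and their lowest in nuclear D2 libraries. The 6 male RiboTag D1 libraries had a sum of 2098 ± 75.1 normalised CPM (mean ± SD), and the 6 male RiboTag D2 libraries of 2212 ± 65.1. Whole cell sums averaged 839 ± 366 over 8 D1 mice and 797 ± 331 over 6 D2 mice. Nuclear sums averaged 920 ± 286 over 6 D1 mice and 305 ± 76.4 over 5 D2 mice. Every RiboTag library lay above every FACS library, and every nuclear D2 library below every nuclear D1 library.

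**Figure D1:**
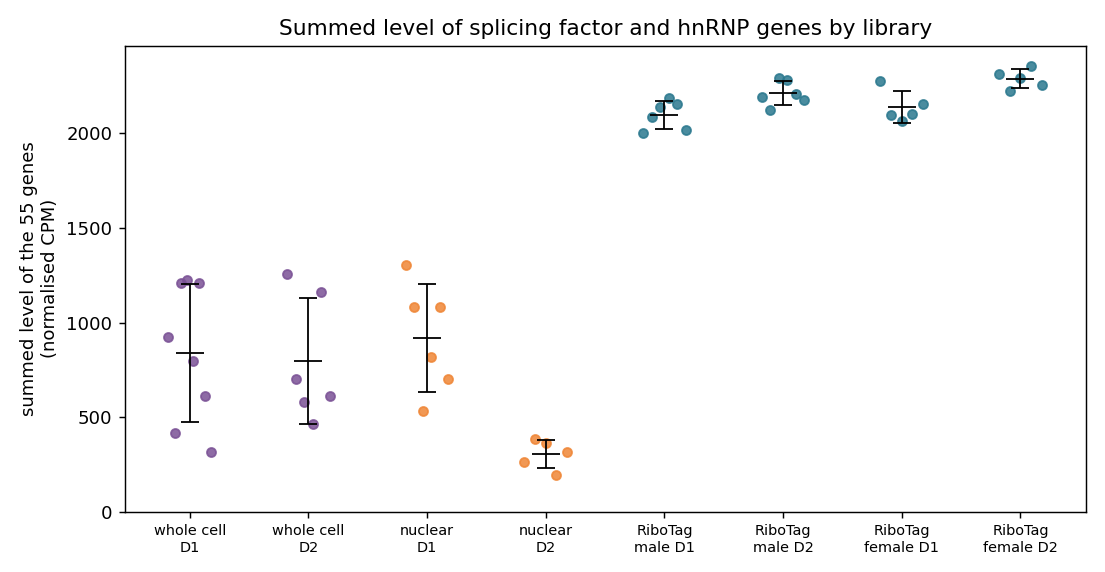
Summed level of the 55 genes (normalised CPM) in each library, by method and labelled cell type; points are libraries and bars are the mean ± SD. RiboTag libraries lie between 2004 and 2354, and nuclear D2 libraries between 197 and 385, below the lowest nuclear D1 library at 531.

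Levels of different genes were compared per kilobase of gene span. The span includes introns, which took 98.6% of Snrpn and 0% of Hnrnpa0. Their median share was 67.0% over the 55 genes and 79.5% over protein-coding genes. The order, and the share in the highest 10%, hold for this measure only and were not computed per kilobase of exons. In male RiboTag D1 libraries Hnrnpa2b1 (11.3 ± 0.532 normalised CPM per kb, SD, n = 6), Hnrnpab (11.3 ± 0.795) and Hnrnpdl (10.9 ± 0.665) came first and lay within each other's spread. In FACS libraries Srsf5, an SR protein gene, came first, at 5.39 ± 2.56 per kb over the 8 whole cell D1 libraries, and at 10.0 ± 3.38 over the 6 nuclear D1 libraries. The Sm gene Snrpg was lowest in male RiboTag D1, at 0.0648 ± 0.0360 per kb (SD, n = 6). Over the male groups, 34 of the 55 genes fell in the highest 10% of protein-coding genes by level per kb, among them 17 of 20 hnRNP and 10 of 11 SR protein genes and 0 of the 4 U1 and U2 snRNP protein genes.

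Upstream sequences are shown for 5 of the genes described below, from the hnRNP, SR protein and SF3 groups, to let their promoters be compared. They are the 250 bases before the RefSeq start in GRCm38.p6, 5′ to 3′, and capitals mark matches on either strand to the motif CCGGAAG, the motif TCTCGCGA, the TATA box as TATAAA and the CCAAT box as CCAAT. In these 5 windows no matches overlap. The 5 genes were chosen after their values and matches were seen. The windows are Hnrnpa2b1 at chr6:51469895-51470144 (minus strand), Hnrnpd at chr5:99978939-99979188 (minus strand), Hnrnpa0 at chr13:58128557-58128806 (minus strand), Srsf5 at chr12:80945249-80945498 (plus strand) and Sf3b2 at chr19:5295456-5295705 (minus strand).
Hnrnpa2b1: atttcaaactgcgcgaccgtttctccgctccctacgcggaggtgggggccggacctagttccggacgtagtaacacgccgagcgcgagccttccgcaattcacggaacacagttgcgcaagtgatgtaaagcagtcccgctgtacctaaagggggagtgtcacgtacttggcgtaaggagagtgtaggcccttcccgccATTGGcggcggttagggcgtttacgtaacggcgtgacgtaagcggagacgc
Hnrnpd: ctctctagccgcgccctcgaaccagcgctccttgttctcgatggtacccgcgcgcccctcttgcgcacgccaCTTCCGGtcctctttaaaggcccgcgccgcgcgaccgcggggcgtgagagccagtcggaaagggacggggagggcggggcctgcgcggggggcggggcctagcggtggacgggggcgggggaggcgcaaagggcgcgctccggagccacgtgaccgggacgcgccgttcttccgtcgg
Hnrnpa0: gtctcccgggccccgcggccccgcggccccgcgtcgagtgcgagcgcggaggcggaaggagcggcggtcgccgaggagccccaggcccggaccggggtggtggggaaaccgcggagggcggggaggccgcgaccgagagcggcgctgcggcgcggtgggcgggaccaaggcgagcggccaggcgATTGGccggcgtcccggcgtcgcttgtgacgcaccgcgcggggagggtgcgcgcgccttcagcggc
Srsf5: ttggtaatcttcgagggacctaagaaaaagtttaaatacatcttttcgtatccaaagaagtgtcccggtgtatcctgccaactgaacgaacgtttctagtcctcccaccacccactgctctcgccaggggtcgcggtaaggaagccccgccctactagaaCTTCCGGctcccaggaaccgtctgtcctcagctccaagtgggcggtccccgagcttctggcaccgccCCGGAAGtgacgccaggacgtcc
Sf3b2: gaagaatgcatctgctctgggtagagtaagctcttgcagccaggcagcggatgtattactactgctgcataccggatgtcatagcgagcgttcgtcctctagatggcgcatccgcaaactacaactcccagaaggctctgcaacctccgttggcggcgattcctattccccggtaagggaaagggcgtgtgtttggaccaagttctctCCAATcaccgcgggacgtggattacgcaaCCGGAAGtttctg

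RefSeq promoters were found for 48 of the 55 genes. Where several starts were listed, these 48 genes took the one nearest the annotated gene start. Other symbols took the first one listed, so the shares below do not rest on fully alike windows. CCGGAAG, a core of ETS factor sites, stood in 15 of the 48 windows (31.2%), against 7.05% of the windows of 27025 gene symbols of every kind, noncoding genes included. TCTCGCGA stood in 3 (6.25%, against 0.925%), TATAAA in 5 (10.4%, against 13%) and CCAAT in 21 (43.8%, against 34.5%). A match describes the letters of the window and is not a binding site.

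Nuclear libraries were compared with male RiboTag libraries to see which messages stood higher in the nucleus than on ribosomes. A call needed an adjusted p under 0.05 and a log2 fold change beyond 0.38 in either direction in edgeR's quasi-likelihood test. In D1, 41 of the 55 genes were lower in nuclear libraries and 1 was higher, where 79.6% of 29901 genes were called, 20.2% lower and 59.4% higher. In D2, 54 were lower and 1 was higher, where 86.3% were called, 26.3% lower and 60% higher. The median log2 fold change of the 55 genes was -1.17 in D1 and -2.35 in D2, against 0.93 and 0.94 over 19312 protein-coding genes. Genes of high level had lower values in general. In the highest 10% by level, the 34 genes had medians of -1.20 in D1 and -2.95 in D2, and the other 1898 protein-coding genes had medians of -1.72 and -3.37.

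**Figure D2:**
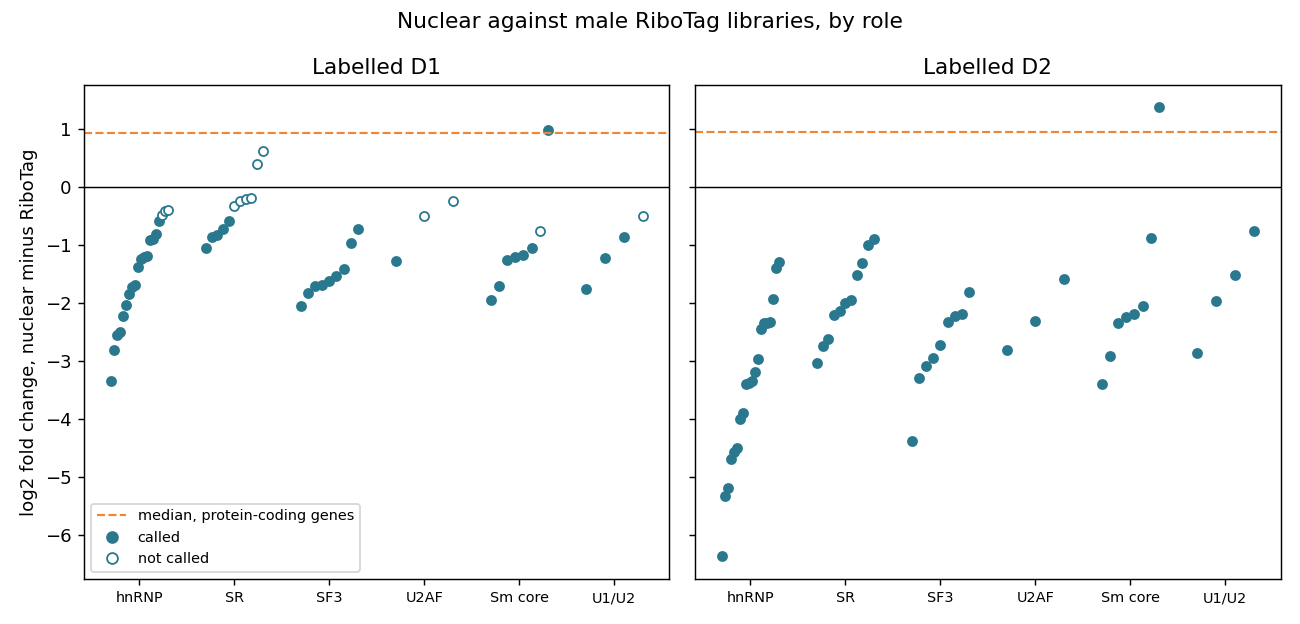
Log2 fold change of nuclear against male RiboTag libraries for each of the 55 genes, grouped by role, in D1 and D2; filled points were called, open points were not, and the dashed line is the median of protein-coding genes (0.93 in D1 and 0.94 in D2). Snrpg lies above the dashed line in both, and the other genes lie below it.

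Of the 20 hnRNP genes, 17 were lower in nuclear than in RiboTag libraries in D1 and 20 in D2, with median log2 fold changes of -1.31 and -3.37. Hnrnpa0, which binds AU-rich messages, was the lowest, with 0.523, 0.636, 0.898, 2.38, 3.01 and 6.87 normalised CPM in nuclear D1 libraries against 22.2 to 26.9 (median 23.4) in RiboTag D1. The groups did not overlap, and its log2 fold change was -3.36 (SE 0.479, edgeR adjusted p = 1.78e-07). In D2 the log2 fold change of Hnrnpa0 was -6.38 (SE 0.598, edgeR adjusted p = 1.01e-11), and the background estimate came to 62.6% of its nuclear D2 counts. Hnrnpll, known for exon choice in lymphocytes, was the highest of the group, at -0.40 in D1 (edgeR adjusted p = 0.169) and -1.30 in D2 (edgeR adjusted p = 0.000118).

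Of the 11 SR protein genes, 5 were lower in nuclear than in RiboTag libraries in D1 and 11 in D2, with medians of -0.33 and -2.00. Srsf11 had 21.5 to 54.1 normalised CPM (median 42.9) in nuclear D1, 21.5 to 25.7 (median 23.6) in RiboTag D1 and 6.28 to 16.3 (median 14.1) in nuclear D2 libraries. Nuclear D1 and RiboTag D1 overlapped, and the log2 fold change of Srsf11 was 0.62 in D1 (SE 0.313, edgeR adjusted p = 0.0656) and -1.01 in D2 (SE 0.333, edgeR adjusted p = 0.00564). Srsf2, which binds exonic enhancers, had the lowest mean of both cell types, at -0.86 in D1 (edgeR adjusted p = 0.0312) and -3.04 in D2 (edgeR adjusted p = 3.38e-08). The whole span of Srsf2 is overlapped by Mettl23 and Mfsd11, whose reads cannot be told apart from its own in counts made without strand.

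All 9 genes of the SF3 complex, part of the U2 snRNP, were lower in nuclear libraries in D1 and in D2. Sf3b2 had the lowest mean of both cell types, at -2.06 and -4.39 (edgeR adjusted p = 2.33e-06 and 7.19e-12). Sf3b6, which contacts the branch point, had the highest, at -0.96 and -1.82 (edgeR adjusted p = 0.00216 and 6.94e-07). Of the 3 U2AF genes, U2af2, the large subunit, was lower in D1 at -1.27 (edgeR adjusted p = 8.44e-05), while U2af1, the small subunit, had -0.25 (edgeR adjusted p = 0.354). All 3 were lower in D2.

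In the Sm core, 6 of 8 genes were lower in D1 and 7 in D2. Snrpf had the lowest mean of both cell types, at -1.72 in D1 and -3.41 in D2 (edgeR adjusted p = 0.000451 and 4.25e-08). Snrpg was the 1 gene called higher, at 0.99 in D1 (SE 0.457, edgeR adjusted p = 0.0465) and 1.37 in D2 (SE 0.471, edgeR adjusted p = 0.00759). Snrpg had 0.449 to 1.62 normalised CPM in nuclear D1 and 0.216 to 0.972 in RiboTag D1 libraries, which overlapped, and the RiboTag values rest on 2 to 12 counts per male D1 and 1 to 7 per male D2 library. The background estimate came to 60.6% of the nuclear D2 counts of Snrpg, and Gm44941 overlaps 34.2% of its span. The D1 call of Snrpg was lost when nuclear D1 library 1, 2, 3, 5 or 6 was left out (edgeR adjusted p = 0.0579 to 0.0964), and both calls were lost with background subtracted (adjusted p = 0.222 and 0.159). The log2 fold changes stayed positive, at 0.86 to 1.01 without those libraries and at 0.92 and 1.06 with background subtracted.

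Snrpb and Snrpn encode closely related Sm proteins, and Snrpn is an imprinted gene used in neurons. Snrpn had 103 to 120 normalised CPM in RiboTag D1 and 33.1 to 79.5 in nuclear D1 libraries, and Snrpb had 6.39 to 8.54 and 2.02 to 6.54. Snrpn did not overlap between these groups, and Snrpb did. Their log2 fold changes were -1.17 and -1.06 in D1 and -2.36 and -2.19 in D2, and all 4 were called. Reads that match both paralogs were not counted, and Snurf overlaps Snrpn, so that both values are uncertain. Of the U1 and U2 snRNP protein genes, Snrpa of U1 was lower at -1.75 and -2.87 (edgeR adjusted p = 1.5e-07 and 1.2e-11), and Snrpa1 of U2 had -0.50 in D1 (edgeR adjusted p = 0.0704) and was lower in D2 at -0.75 (edgeR adjusted p = 0.00885).

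Male RiboTag libraries were also compared with whole cell libraries, which share the RiboTag libraries with the comparison above but use no nuclear library. In D1, 37 of the 55 genes were higher in RiboTag and 1 was lower, where 80.5% of genes were called, 21.3% higher and 59.3% lower. In D2, 41 were higher and 1 was lower, where 81.2% were called, 21.9% higher and 59.3% lower. The median log2 fold change was 0.98 in D1 and 1.21 in D2, against -0.81 and -0.85 over protein-coding genes. Higher calls took in 20 of 20 hnRNP genes in D1 and 19 in D2, 6 and 8 of 9 SF3 genes, and 2 and 3 of 11 SR protein genes. Hnrnpa3 had the largest difference of the 55 in both, at 3.70 in D1 and 4.31 in D2 (edgeR adjusted p = 2.64e-13 and 3.32e-13), and Snrpg was the gene called lower, at -1.39 and -1.41. In the highest 10% by level the 34 genes had medians of 1.25 and 1.45, and the other protein-coding genes 1.58 and 1.79. In the next 10%, 9 genes had 0.83 and 1.19, and the others 1.03 and 1.11. In the 10% below that, 6 genes had 0.81 and 0.92, and the others 0.63 and 0.65.

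Nuclear against whole cell libraries gave different counts in D1 and D2. In D1, 1 of the 55 genes was higher (Hnrnpa3, 1.19, edgeR adjusted p = 0.00222) and 6 were lower (Sf3a3, Sf3b3, Sf3b5, Snrpd1, Snrpd2 and Snrpe), where 19.1% of genes were called, 10.7% higher and 8.44% lower. In D2, 0 were higher and 46 were lower, where 20.2% were called, 3.68% higher and 16.5% lower. With limma voom and sample weights 22 were lower in D2 (8.88% of all genes). The median was -0.07 in D1 and -1.24 in D2, against -0.27 and 0.05 over protein-coding genes. Genes of high level had low values in D2 in general. In the highest 10% by level, the 34 genes had medians of 0.08 in D1 and -1.52 in D2, and the other 1898 protein-coding genes had medians of -0.05 and -1.54. Of these, 33 of the 34 genes and 81.5% of the others were lower in D2.

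The D1 counts turned on single libraries and on scaling. Without nuclear D1 library 3, 7 of the 55 genes were higher and 3 lower (12.3% and 18.7% of all genes), and without library 6, 5 were higher (11.4%). Without library 2 or 4, 2 were lower (4.39% and 7.46%). With upper-quartile factors 11 were higher and 4 lower (14.3% and 6.47%). Without whole cell D1 libraries 2 and 8, which had the highest background, 12 were lower in D1 (7.36%), and the median relative to that of protein-coding genes was -0.02 where it had been 0.20.

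The difference between D2 and D1 in these contrasts was tested as an interaction. The nuclear against whole cell ratio was lower in D2 for 36 of the 55 genes, where 21.9% of genes were called, 6.12% higher and 15.8% lower. These were 20 of 20 hnRNP, 8 of 11 SR protein, 3 of 9 SF3, 3 of 3 U2AF, 1 of 8 Sm core and 1 of 4 U1 and U2 snRNP protein genes. In the highest 10% by level, 81.5% of the other protein-coding genes were lower in nuclear than whole cell D2 libraries. In D1 that share was 10.4%. The interaction itself was not compared with genes of like level. The nuclear against RiboTag ratio, which shares the nuclear libraries, was lower in D2 for 37, where 14.6% were called, 1.64% higher and 12.9% lower. With limma voom and sample weights the first count was 4 of 55, where 4.99% of all genes were lower. For RiboTag against whole cell, edgeR called 0 of the 55 genes (0.12% of all genes), with 2 at an unadjusted p under 0.05, and DESeq2 called 0.

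D2 was then compared with D1 within each method, among genes that also passed a filter on level per kb. In nuclear libraries 43 of the 55 genes passed, of which 16 were lower in D2 and 0 higher, where 12.2% of 9228 genes were called, 3.18% higher and 9.06% lower. The 16 were 11 hnRNP genes, the SR protein genes Srsf2, Srsf5, Srsf6 and Srsf7, and Sf3b2. The median over the 43 was -0.50, against -0.02 over protein-coding genes. No comparison with genes of like level was made here. Without the filter on level, 42 of the 55 genes were lower, where 19.4% of 30791 genes were lower, and the median relative to protein-coding genes was -1.53 where it had been -0.48.

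Hnrnpa2b1, which binds RNA for sorting and transport, had 24.4, 31.1, 38.8, 58.7, 59.1 and 69.9 normalised CPM in nuclear D1 and 5.28, 7.75, 9.83, 15.4 and 15.7 in nuclear D2 libraries. The groups did not overlap, and the log2 fold change was -1.06 (SE 0.197, edgeR adjusted p = 0.00923). This fold change is on the scale of the fit, in which libraries were scaled again over the genes that passed the filter on level, and it is smaller than the difference in normalised CPM. Without that filter it was -2.21 for Hnrnpa2b1, -2.11 for Hnrnpd, -2.68 for Hnrnpk and -2.30 for Sf3b2, all called. Hnrnpd, an AU-rich element binding protein, had 12.3 to 39.3 (median 24.7) in nuclear D1 and 3.96, 5.22, 5.87, 7.69 and 8.30 in nuclear D2. Its groups did not overlap either, and the log2 fold change was -0.93 (SE 0.160, edgeR adjusted p = 0.00923). Hnrnpk, which binds C-rich RNA, had 10.4 to 56.0 (median 24.2) in nuclear D1 and 3.05, 3.98, 4.76, 5.91 and 6.35 in nuclear D2, with no overlap and a log2 fold change of -1.46 (SE 0.288, edgeR adjusted p = 0.00935).

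Sf3b2 had 16.7 to 77.7 normalised CPM (median 36.8) in nuclear D1 and 5.93, 6.90, 10.7, 10.9 and 11.2 in nuclear D2, with no overlap and a log2 fold change of -1.08 (SE 0.223, edgeR adjusted p = 0.0101). Hnrnpa1, a repressor of exon use, Hnrnpdl and Hnrnpab, relatives of Hnrnpd, and Hnrnpu, a scaffold protein of chromatin, had log2 fold changes of -1.11, -0.81, -1.41 and -0.89 (edgeR adjusted p = 0.0103, 0.0116, 0.0130 and 0.0132). Phykpl overlaps 65.1% of the span of Hnrnpab. For all 8 genes the whole cell D1 and D2 libraries overlapped, and so did the male RiboTag D1 and D2 libraries. The 8 genes were picked by adjusted p in the nuclear comparison, so their lack of overlap there follows largely from that choice. The share of all genes without overlap was not computed.

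**Figure D3:**
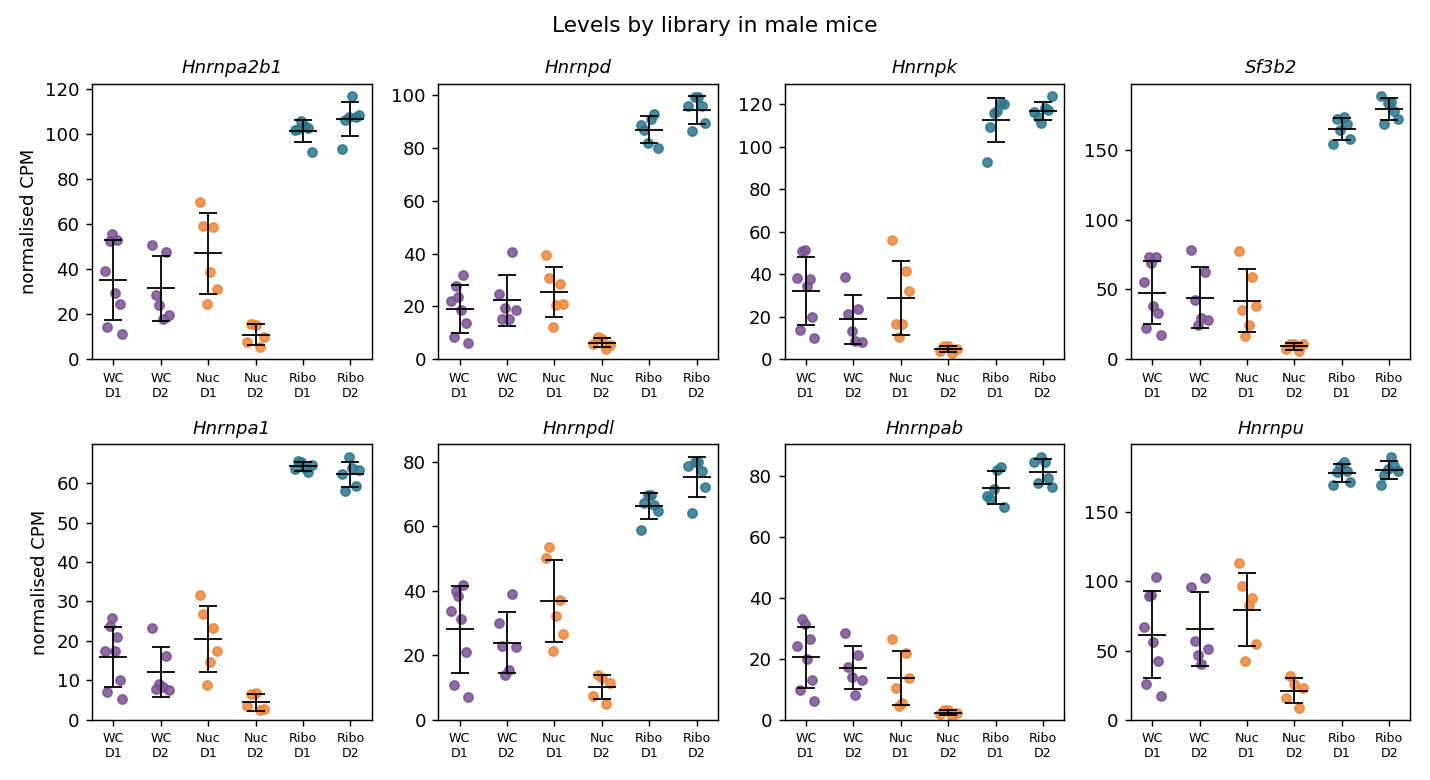
Level (normalised CPM) of the 8 genes of smallest adjusted p in nuclear D2 against D1, in each male library of the whole cell (WC), nuclear (Nuc) and RiboTag (Ribo) groups; bars are the mean ± SD. Nuclear D2 lies below nuclear D1 without overlap for all 8 genes, which were picked by adjusted p in this same comparison.

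Background differed between the nuclear groups as well. It came to 18.8% to 45.3% of the counts of the 55 genes in nuclear D2 libraries and to 0.458% to 11.3% in nuclear D1. The sum of 4 messages of the mitochondrial genome (mt-Co1, mt-Cytb, mt-Nd1 and mt-Nd4), which lies outside the nucleus, was 7.35 to 34.4 normalised CPM in nuclear D2 and 61.6 to 2065 in nuclear D1, and that of the 3 nuclear RNAs Malat1, Meg3 and Neat1 was 749 to 2755 and 3090 to 9610. Some other lists moved with the nuclear groups too, and some did not. The sum of 5 markers shared by all MSNs was 308 to 904 in nuclear D1 and 94.6 to 287 in nuclear D2, which did not overlap. The sum of 4 ribosomal protein messages was 27.0 to 222 and 8.09 to 22.4, and that of 5 astrocyte markers 65.5 to 132 and 48.5 to 61.7. That of 5 endothelial markers went the other way, with overlap, at 7.97 to 47.3 and 45.3 to 57.7. The sum of 5 microglia markers overlapped (45.9 to 62.2 and 48.2 to 53.2). So did that of 7 genes for the assembly of Sm rings (17.8 to 24.3 and 17.2 to 21.0). With background subtracted, 17 of the 42 genes tested were lower in nuclear D2, where 9.08% of 10842 genes were lower. Without nuclear D2 library 1, 5 or 7 the count was 9, 8 and 9 of 43, where 4.47%, 3.53% and 4.12% of all genes were lower. The part of these lists in the count was not tested.

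**Figure D4:**
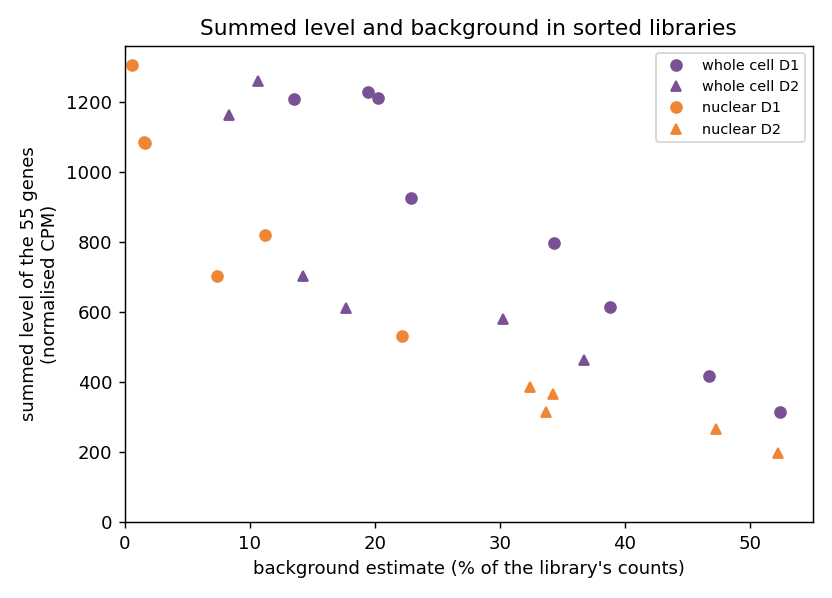
Background estimate (percent of a library's counts) against the summed level of the 55 genes (normalised CPM) in each whole cell and nuclear library; each point is a library. Nuclear D2 libraries lie at 32.4% to 52.2% background and a level of 197 to 385, and the nuclear D1 library of lowest background, 0.578%, lies at 1303.

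Whole cell and RiboTag libraries gave no call between D2 and D1. In whole cell libraries edgeR called 0 of 52 genes tested (1.06% of all genes), with 8 at an unadjusted p under 0.05, and DESeq2 called 2 lower (1.59% of all genes). Without whole cell D1 libraries 2 and 8, 12 were lower in D2, where 6.37% of all genes were lower. In male RiboTag libraries edgeR called 0 of 51 (2.56% of all genes), with 13 at an unadjusted p under 0.05, and DESeq2 called 0. In female RiboTag libraries edgeR called 0 of 51 (1.9% of all genes), with 2 at an unadjusted p under 0.05, and DESeq2 called 0. Shares in brackets are of genes called. The share of all genes at an unadjusted p under 0.05 was not computed in any comparison, so those counts were not set against it.

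The male RiboTag differences of smallest p were small. Hnrnpm had a log2 fold change of 0.20 (edgeR adjusted p = 0.00618) and Hnrnpdl of 0.18 (edgeR adjusted p = 0.0221), both short of the fold threshold. U2af1l4, a U2af1 paralog, had 0.43 (edgeR adjusted p = 0.0268) and missed the filter on mean count. The whole span of U2af1l4 is overlapped by Psenen and Gm49396, whose reads cannot be told apart from its own. In female libraries Hnrnpm had 0.00, Hnrnpdl 0.21 and U2af1l4 0.23 (edgeR adjusted p = 1, 0.0859 and 0.437). These 3 genes were chosen after their values were seen. Between female and male RiboTag libraries edgeR called 0 of 51 genes (0.0418% of all genes), with 1 at an unadjusted p under 0.05, and DESeq2 called 0.

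Other splicing genes were described by lists. Of 31 neuronal and other splicing regulators, 11 were higher and 9 lower in nuclear than in RiboTag D1 libraries (median log2 fold change 0.35). Of 9 SR kinase and Tra2 genes, 4 were higher and 1 lower (median 0.42). Of 36 other snRNP and spliceosome proteins, 6 were higher and 12 lower (median -0.46), and of 7 genes for the assembly of Sm rings 1 was higher and 3 lower (median -0.66). Over all 29901 genes tested, 59.4% were higher and 20.2% lower in D1. All of these medians lay below that of protein-coding genes in the same comparison. In D2 the counts were 8 and 18, 1 and 4, 1 and 29, and 1 and 4, where 60% of all genes were higher and 26.3% lower. The difference between these lists and the 55 genes was not tested.

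Across the 55 genes, the share of the gene span in introns had a Pearson correlation of 0.52 with the nuclear against whole cell log2 fold change in D2 and of 0.08 in D1. Over 19312 protein-coding genes the values were 0.21 and 0.06. For nuclear against RiboTag it was 0.42 in D2 and 0.21 in D1 (protein-coding genes 0.18 and 0.17). For RiboTag against whole cell it was -0.16 in D2 and -0.14 in D1 (protein-coding genes -0.15 and -0.14). These are correlations across genes, which share their libraries and are not independent replicates. Background, estimated per kb of span, came to 32.4% to 52.2% of nuclear D2 counts, and its part in these values was not tested.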

How the data were processed

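Raw counts per gene, introns included, were deposited by the authors in 1 table of 49 columns. Per the submitters' processing notes and the study's methods, ribosome-depleted paired-end libraries were aligned to GRCm38 with HISAT2 2.0.5 and counted with featureCounts without strand. A fragment over several genes was counted for each, and multi-mapping reads were not counted, so that overlapping genes share counts and close paralogs lose them. A further lane of whole cell D2 number 3 and a repeat of whole cell D1 number 1 were summed with their first runs, which gave 47 libraries. Further samples titled whole cell D2 were not analysed here. The members and lists were chosen with earlier results of these data known.

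Names, spans and transcript types came from a GENCODE annotation that held 99.7% of the gene IDs. Genes above 1 CPM in at least 2 libraries were tested with edgeR 4.0.16 in R 4.3.3 (TMM scaling, quasi-likelihood test, Benjamini-Hochberg adjustment). Methods were compared in 1 fit over the male groups. D2 was compared with D1 within a method after a filter on FPM per kb of span. In nuclear and whole cell libraries it asked for at least 1 in at least 1 library and at most 50000 in all. In RiboTag libraries it asked for at least 0.1 in at least 2 libraries. A call also needed a mean count above the 0.25 quantile and, in nuclear libraries, a standard error below the 0.75 quantile. DESeq2 1.42.0 and limma 3.58.1 were alternatives. Genes named with values were the 8 of smallest adjusted p among those called in a D2 against D1 or sex comparison, the highest and lowest of each role in nuclear against RiboTag, and Snrpb and Snrpn. Others were named after their values were seen. The scripts were tested on simulated data. Each sample was a separate mouse. Values near the floor of 3 counts are imprecise, and counting error is only part of their error.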

Additional observations from a re-analysis of the deposited data

Results flagged for a closer look

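In groups of 4 to 10 libraries, 10 of 176 sets of values had a highest or lowest library set far apart from the others, where chance flags about 1 in 20. In whole cell D2 the highest library stood apart for Snrpf (15.9 normalised CPM, next 4.65), Snrpg (2.59, next 1.25), U2af1 (11.2, next 5.80) and Snrpb (12.1, next 4.52), and the lowest for Snrpa1 (1.97, next 2.92). In nuclear D2 the highest stood apart for Hnrnpa0 (1.06, next 0.407). In RiboTag libraries the lowest stood apart for Snrpa1 in female D1 (2.26, next 3.51), Hnrnpa2b1 in male D1 (92.2, next 102) and Snrpa in female D2 (15.8, next 17.2), and the highest for U2af1 in female D2 (13.6, next 10.5).

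The nuclear against whole cell ratio differed between D2 and D1 for 36 of the 55 genes by edgeR's interaction test (21.9% of all genes), and the nuclear against RiboTag ratio for 37 (14.6%). With limma voom the first count was 4, where 4.99% of all genes were lower. In the first, the log2 difference (D2 minus D1) was -1.95 for Hnrnpa2b1, -2.23 for Hnrnpd, -1.80 for Hnrnpk, -2.08 for Sf3b2, -1.78 for Hnrnpa1, -1.61 for Hnrnpdl, -2.26 for Hnrnpab and -2.01 for Hnrnpu. In the second it was -2.21, -2.16, -2.65, -2.34, -2.17, -2.06, -2.65 and -1.96 for Hnrnpa2b1, Hnrnpd, Hnrnpk, Sf3b2, Hnrnpa1, Hnrnpdl, Hnrnpab and Hnrnpu. Both share the nuclear libraries, and neither was compared with genes of like level.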

How the results depend on the processing

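The relative median of nuclear against whole cell D1 turned in sign, from 0.20 to -0.02, without whole cell D1 libraries 2 and 8. The move was smaller than the spread between libraries. No called gene among those named changed direction. Of the counts and medians recomputed without leaving out single libraries, 393 kept their value within the limits used and 51 moved, and of those with a library left out 214 kept it and 11 moved. Of the values of named genes, 551 kept their side of the threshold, 12 passed it and 16 no longer did. The alternatives chosen after seeing the data were leaving out each nuclear D1 library, leaving out whole cell D1 libraries 2 and 8, and background subtraction without filters on mean count and standard error. The cause of the moves was not tested.

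Percentages in brackets are shares of all genes tested under the same setting. For nuclear against whole cell D1, genes higher (1, 10.7%) came to 7 with DESeq2 (11.3%) and 7 with its size factors in edgeR (10.3%). They came to 4 with no filter on low counts (7.62%), 11 with upper-quartile factors (14.3%) and 4 with TMM on protein-coding genes (11.1%). With only the groups compared 0 were higher (6.57%), and with background subtracted 3 (10.9%). With the repeat column as its own library 2 were higher (10.8%), and with it left out 3 (10.8%). With a nuclear D1 library left out 1 to 7 were higher (8.68% to 12.3%). Genes lower (6, 8.44%) came to 4 with upper-quartile factors (6.47%) and 2 with no filter on low counts (3.84%). With only the groups compared there was 1 (3.14%). Without whole cell D1 libraries 2 and 8 there were 12 (7.36%), and with a nuclear D1 library left out 2 to 6 (4.39% to 18.7%). For nuclear against whole cell D2, genes lower (46, 16.5%) came to 22 with limma voom (8.88%).

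For RiboTag against whole cell D1, genes lower (1, 59.3%) came to 2 with DESeq2 (62.2%) and with its size factors (61.7%). They were also 2 with TMM on protein-coding genes (61%), with limma voom (60.7%) and without whole cell D1 libraries 2 and 8 (59%). With background subtracted 0 were lower (48.5%), and the median relative to protein-coding genes fell from 1.79 to 1.21. In D2, genes lower (1, 59.3%) came to 0 with only the groups compared (54.7%), limma voom (51.5%) and background subtracted (51.4%). For nuclear against RiboTag D1, genes higher (1, 59.4%) came to 2 with DESeq2 (59.4%) and its size factors (60.5%). They were also 2 with TMM on protein-coding genes (61.5%) and with background subtracted (46.3%). With no filter on low counts (35.5%) and with limma voom (57.1%) 0 were higher. With a nuclear D1 library left out 0 to 1 were higher (53.8% to 60%). The relative median (-2.10) came to -1.50 with only the groups compared. In D2, genes higher (1, 60%) came to 0 with background subtracted (55.7%). The relative median (-3.29) came to -3.90 with no filter on low counts, -2.96 with only the groups compared and -2.89 with background subtracted. For the interaction of nuclear against whole cell, genes higher (0, 6.12%) came to 1 with DESeq2 (16%). Genes lower (36, 15.8%) came to 4 with limma voom (4.99%).

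For nuclear D2 against D1, genes lower (16, 9.06%) came to 40 with no filter on low counts (10.4%). They came to 42 with no filter on level per kb (19.4%) and with summed exons as gene length (20.5%). With a nuclear library left out 8 to 21 were lower (3.53% to 11.5%). The relative median (-0.48) came to -1.62, -1.53 and -1.44 under the first 3. For whole cell D2 against D1, genes lower (0) came to 2 with DESeq2, 1 with the repeat column as its own library and 12 without whole cell D1 libraries 2 and 8. For male RiboTag D2 against D1, genes higher (0, 0.943%) came to 2 with no fold threshold (3.71%). They came to 1 with no filter on low counts (0.782%), level per kb (1.05%) or mean count (1.3%), and with summed exons (1.05%).

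The replicate numbers did not pair the samples: in whole cell D1 and D2 the deviations of same-numbered libraries correlated at -0.391 to 0.229, and in male RiboTag at -0.0175 to 0.0216, and 0 and 1 of 6 libraries correlated best with their own number. With the replicate block, genes higher and lower were 1 and 9 for nuclear against whole cell D1, 32 and 2 for RiboTag against whole cell D1, 42 and 1 in D2, 1 and 41 for nuclear against RiboTag D1 (there the gene higher was Srsf11, adjusted p = 0.0364, and Snrpg had 0.0520), and 0 and 0 for whole cell and for male RiboTag D2 against D1. Columns of nuclear D2 and female RiboTag carry no number that matches the labels, so no block was fitted there.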
